A study of Mus musculus with 6 samples.

Results

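The genes described here serve the unfolded protein response of the endoplasmic reticulum (ER) and the integrated stress response, measured by RNA sequencing in mouse embryonic fibroblasts. The 33 members are a list of gene symbols set by pathway rather than by a threshold on any value. The list was chosen with earlier results of these data known. All 33 occur among the 24062 symbols of the count table. All 33 also had enough counts to be tested, among 14090 tested genes. By role, 6 are sensors and transcription factors, 14 are ER folding and degradation genes, 3 are stress feedback genes and effectors, and 10 synthesise or transport amino acids. The cells came from embryos of the C57BL/6 strain. In the p27 OE group a lentivirus overexpressed p27, a cell cycle inhibitor and the product of Cdkn1b. RNA was taken on day 4, and the titles call these cells non-senescent. The other group is named EV control with D4 in its titles, and the labels do not spell out EV. Its titles also carry the words dataset 10, which those of p27 OE do not. What these words stand for is not stated, and they go with the group. Each group had 3 libraries, numbered 1, 2 and 3 in the titles of both groups. Whether a number stands for a separate culture or embryo is not stated, and the p-values measure the spread between these libraries. The libraries numbered 1 differ from the others in Xist and Ddx3y, RNAs that tell female from male cells, as given below. The spread between them and the others is thus not technical alone. Numbers 2 and 3 also differed in Xist, as given at the end, and how much of their spread is technical is not known.

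Misfolded protein in the ER is sensed by the membrane proteins Ire1 (Ern1), Atf6 and Perk. Active Ire1 splices the Xbp1 messenger, and spliced Xbp1 and cleaved Atf6 switch on genes for chaperones and for the degradation of ER proteins. Perk and its sister kinases phosphorylate the initiation factor eIF2, which slows general translation while the Atf4 messenger is translated more. Atf4 then switches on genes for amino acid synthesis, uptake and charging of tRNA, and in prolonged stress the factor Ddit3 (Chop). Fibroblasts secrete much collagen and so carry a large folding load. Counts per gene do not show splicing of Xbp1, cleavage of Atf6 or translation of Atf4.

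Motifs known for the chaperone and the amino acid genes were read in the DNA before their start sites, and are shown because these groups of genes also separated in their levels. RefSeq promoter windows, from 250 bases before to 50 bases after the start (GRCm38), were at hand for 30 of the 33 members. The ER stress element was searched on both strands as CCAAT, 9 bases of any kind and CCACG. It occurs in 0.119% of all 32851 windows, in 7 of the 13 ER folding members with a window, and in 0 of the other 17. The elements are given 5′ to 3′ in the direction of the motif with 10 bases on each side, and capitals mark the fixed letters.
Hspa5: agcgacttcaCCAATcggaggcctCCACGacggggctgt
Hsp90b1, farther from the start: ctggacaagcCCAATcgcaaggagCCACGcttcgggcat
Hsp90b1, nearer the start: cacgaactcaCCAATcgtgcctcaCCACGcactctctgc
Calr: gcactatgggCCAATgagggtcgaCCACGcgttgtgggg
Canx: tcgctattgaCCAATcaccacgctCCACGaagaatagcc
Pdia6: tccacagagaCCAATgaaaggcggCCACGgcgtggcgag
Dnajc3: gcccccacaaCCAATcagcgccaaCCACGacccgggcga
Creld2: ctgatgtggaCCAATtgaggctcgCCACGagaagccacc

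The shown stretches lie at chr2:34772015-34772053 (forward strand) for Hspa5, chr8:84847065-84847103 (forward) for Calr and chr11:50325790-50325828 (reverse) for Canx. Those of Hsp90b1 lie at chr10:86705628-86705666 (reverse) and chr10:86705523-86705561 (forward). Those of Pdia6 (chr12:17266481-17266519, forward), Dnajc3 (chr14:118937817-118937855, forward) and Creld2 (chr15:88819510-88819548, reverse) complete the set. The last base of the element lies between 47 bases (Hspa5) and 194 bases (the farther element of Hsp90b1) before the start.

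A second motif, TGATGNAA, is the core of the C/EBP-ATF element, the class of site that Atf4 binds with a partner. It occurs on either strand in 3.97% of all windows and in 6 members. Of these, 3 are amino acid genes, of 9 with a window, 2 are stress effectors, of 3, and 1 is the ER degradation gene Herpud1. Slc7a11 is the only member with a pair of these motifs in its window, on opposite strands. Capitals mark the motif.
Slc7a11, first: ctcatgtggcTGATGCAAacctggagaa
Slc7a11, second: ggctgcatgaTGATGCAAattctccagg
Asns: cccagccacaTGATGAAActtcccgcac
Pycr1: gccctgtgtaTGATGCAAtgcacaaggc
Chac1: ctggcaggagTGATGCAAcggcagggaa
Trib3: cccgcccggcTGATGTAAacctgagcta
Herpud1: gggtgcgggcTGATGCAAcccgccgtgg

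These stretches lie at chr3:50443662-50443689 (reverse) and chr3:50443643-50443670 (forward) for Slc7a11 and at chr6:7693215-7693242 (reverse) for Asns. Those of Pycr1 and Herpud1 lie at chr11:120643834-120643861 (reverse) and chr8:94386307-94386334 (reverse). Chac1 has its motif at chr2:119351039-119351066 (reverse) and Trib3 at chr2:152344029-152344056 (forward), inside the first bases of the transcript. The third motif searched, TGACGTGG, the core bound by Xbp1 and Atf6, occurs in 0.676% of windows and in 0 of the 30 members with a window. A match is a description of the sequence and does not show that a factor binds there.

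The 250 bases before the start of 2 genes are shown in full, Hspa5 because it encodes BiP, the chaperone that holds the ER sensors inactive, and Slc7a11 because it had the largest change with p27 among the members. They read in the direction of the gene, with the fixed letters of the motifs above in capitals, from chr2:34771840-34772089 (forward) and chr3:50443614-50443863 (reverse).
Hspa5: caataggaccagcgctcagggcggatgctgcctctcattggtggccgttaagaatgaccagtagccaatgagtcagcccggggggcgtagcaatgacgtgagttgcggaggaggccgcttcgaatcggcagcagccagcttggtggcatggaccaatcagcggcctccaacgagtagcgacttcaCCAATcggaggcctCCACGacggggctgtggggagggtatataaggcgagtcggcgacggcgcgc
Slc7a11: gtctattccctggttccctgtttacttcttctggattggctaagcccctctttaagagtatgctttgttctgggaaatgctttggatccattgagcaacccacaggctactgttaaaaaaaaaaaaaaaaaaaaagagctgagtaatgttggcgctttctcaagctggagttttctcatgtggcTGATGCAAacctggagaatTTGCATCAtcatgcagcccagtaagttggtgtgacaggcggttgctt

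Total counts per library ran from 34920728 to 52098220, and members had between 283 and 64649 counts in a library. Cdkn1b was at 49.9 to 52.2 CPM, the usual unit of counts scaled to library size, in EV control and at 419 to 978 CPM in p27 OE, as the labels say. The libraries numbered 1 stood apart: the first principal component of all tested genes, with 58.9% of the variance, separated them from the other 4. They had 317 and 477 CPM of Xist, the RNA of the inactive X chromosome, and 0.0556 and 0.0220 CPM of the Y-linked gene Ddx3y, against 0.504 to 9.57 and 54.3 to 65.5 CPM in the other libraries. Fibroblast markers were abundant, with Col1a1 at 22733 to 26723 CPM, and markers of other cells were mostly low. Of the endothelial, epithelial and plasma cell markers, Cdh5, Epcam, Mzb1 and Igj stayed at or under 0.200 CPM, Kdr and Tek stayed at or under 2.37 CPM, Krt8, Krt18 and Prdm1 reached 3.39, 9.15 and 6.10 CPM, and Sdc1 was at 252 to 287 CPM. Macrophage markers summed to 46.3 to 57.4 CPM in EV control and 43.7 to 75.8 CPM in p27 OE, with Emr1, 1 of 8, called higher with p27 in the fit with the block described next. Lyz2 made up most of these sums, and each other macrophage marker stayed at or under 5.93 CPM. In that fit 7 of the 8 lay above 0 (49.6% of all tested genes), with a median log2 fold change of 0.47. In 3 of the 8 all p27 OE libraries lay above those of EV control, against 6.61% of all tested genes. The 6 neural markers summed to 122 to 138 and 156 to 221 CPM, with Nes and Tubb3 called higher, and 2 of 10 fibroblast markers, Pdgfra (-0.48 on the log2 scale) and Lum (-0.23), were called lower. The part of these markers in the results below was not tested.

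Overexpressed p27 went with small rises in a few members. Slc7a11, the cystine importer, Calr, the ER chaperone calreticulin, and Ppp1r15a (Gadd34), which guides the phosphatase that reverses eIF2 phosphorylation, rose when libraries of the same number were compared. Their log2 fold changes were 0.57, 0.30 and 0.27. In the GENCODE annotation of GRCm38 the genes lie at chr3:49892526-50443614 (reverse strand), chr8:84841850-84846934 (reverse) and chr7:45522916-45526268 (reverse). The edgeR fit with the replicate number as a block called these 3 of 33 members higher and 0 lower (adjusted p under 0.05), 9.09% and 0%, against 3.80% higher and 3.63% lower among all tested genes. The fit without the block called 0 members and 0 genes in all (0% of 14090). At an unadjusted p under 0.05 it had 1 member and 1017 genes. Without the block, DESeq2 called 0 members and, in all, 53 genes higher and 36 lower, and limma-voom called 0 of either. The block calls changed with the libraries used. When those numbered 1 were left out there were 8 members higher and 1 lower (6.36% and 6.04% of all genes). Without those numbered 2 there were 3 and 0 (3.51% and 2.97%), and without those numbered 3 there were 0 and 0 (1.58% and 0.746%).

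Fold changes from here on are log2 values of p27 OE over EV control from the fit with the block, each ± its SE. The SE comes from that fit, which shares information on the variance between genes, and is not the spread of the 3 pairs alone. In bulk RNA, fewer cells that express a gene and less of its RNA per cell cannot be told apart. The values differ from those without the block by at most 0.05 for any member. Slc7a11 had 9.24, 8.56 and 10.3 CPM in EV control 1 to 3, against 11.5, 14.4 and 16.3 CPM in p27 OE 1 to 3. The groups did not overlap, and the rise was smallest between the libraries numbered 1. The log2 fold change was 0.57 ± 0.11 (edgeR adjusted p 0.00774, and 0.676 without the block). Without the libraries numbered 3 the adjusted p was 0.0629. In all, 2 members had their 3 p27 OE libraries above the 3 of EV control and 1 had them below, against 6.61% and 8.28% of all tested genes. The other one that lay higher was Dnajc3, and Atf5 lay lower, with values given below with their groups.

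The plot of 6 members by library joins the libraries of each number. Calr and Ppp1r15a differed more between number 1 and the others than with p27, while Slc7a11 differed more with p27 (0.57 against -0.22).

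**Figure D1:**
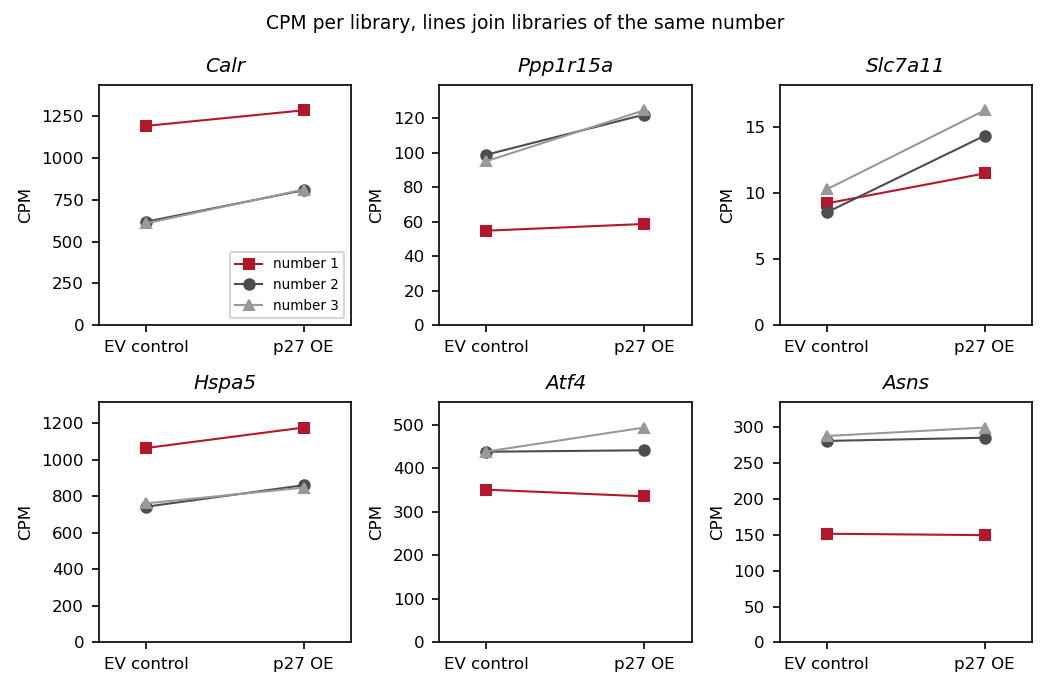
CPM of 6 members in each library, with EV control on the left and p27 OE on the right of each panel and lines joining libraries of the same number. Slc7a11 was at 8.56 to 10.3 CPM in EV control and 11.5 to 16.3 CPM in p27 OE, while Calr, Ppp1r15a, Hspa5, Atf4 and Asns differed more between number 1 and the other numbers than between the groups.

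Among the 14 ER folding and degradation members, 1 rose, 0 fell and 13 were not called. Calr, a calcium-binding chaperone for glycoproteins, had 1192, 619 and 609 CPM in EV control 1 to 3, against 1286, 808 and 812 CPM in p27 OE 1 to 3. The groups overlapped, since EV control 1 was above p27 OE 2 and 3, but p27 OE was higher within each number. The log2 fold change was 0.30 ± 0.07 (edgeR adjusted p 0.0166, and 0.924 without the block). Leaving out the libraries numbered 3 gave 0.25 (edgeR adjusted p 0.230).

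Hspa5 had 1065, 743 and 761 CPM in EV control 1 to 3, against 1177, 861 and 848 CPM in p27 OE 1 to 3. It was higher in p27 OE within each number and the groups overlapped. The log2 fold change of 0.17 ± 0.06 missed the threshold (edgeR adjusted p 0.0793). DESeq2 with the block placed Hspa5 just inside it (adjusted p 0.0488). Hsp90b1 (Grp94), the Hsp90 of the ER, had 0.19 ± 0.06 (edgeR adjusted p 0.0604), and 0.0278 by DESeq2 with the block.

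Dnajc3 (P58IPK), a cochaperone of BiP, had 113, 107 and 106 CPM in EV control 1 to 3, against 127, 115 and 113 CPM in p27 OE 1 to 3. These groups did not overlap, although p27 OE 3 exceeded EV control 1 by less than 1 CPM. Its log2 fold change was 0.12 ± 0.05 (edgeR adjusted p 0.174). Of the disulfide isomerases, Pdia3, which works with calreticulin and calnexin, had 0.18, Pdia4 0.10 and Pdia6 0.09, and Canx (calnexin) had 0.12. None of these 4 was called.

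The remaining folding members lay between -0.07 (Dnajb9, a cochaperone of BiP) and 0.12 (the secreted trophic factor Manf), with Sdf2l1 and Creld2 between them, and none was called. For ER degradation, Herpud1, which helps assemble the membrane ligase, had -0.02 and Sel1l, its scaffold, 0.05. The 14 members had a median log2 fold change of 0.11 with or without the block, with 12 above 0, against -0.00118 over all tested genes. The median ratio was 0.11, 0.12 and 0.10 between the libraries numbered 1, 2 and 3. Without the block it was 0.26 when EV control 1 was left out and -1.32e-05 when p27 OE 1 was left out. The 95% intervals of these members reached from -0.24 (Dnajb9) to 0.45 (Calr) with the block and from -0.61 (Sdf2l1) to 1.02 (Calr) without it.

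Among the 10 amino acid members, Slc7a11 was called higher, 0 were called lower and 9 were not called. Asns, asparagine synthetase, had 152, 281 and 288 CPM in EV control 1 to 3, against 149.7, 286 and 299.9 CPM in p27 OE 1 to 3. The groups overlapped, and the log2 fold change was 0.02 ± 0.05. The serine synthesis enzymes Psat1 and Phgdh had -0.02 and 0.02. The mitochondrial one-carbon enzymes Shmt2 and Mthfd2 had 0.14 and 0.11, and the proline synthesis enzymes Aldh18a1 and Pycr1 had 0.08 and -0.03. Slc7a5 and Slc3a2, the light and heavy chain of the leucine transporter, had 0.06 and 0.02. Slc3a2 is also the heavy chain that partners Slc7a11. The median of the 10 was 0.04 (0.05 without the block), against -0.00118 over all tested genes. Without the block it was -0.16 when EV control 1 was left out and 0.26 when p27 OE 1 was left out. With the block the synthesis enzymes had intervals from -0.16 (Pycr1) to 0.26 (Shmt2), and without it the interval of Asns alone spanned -0.77 to 0.83.

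None of the 6 sensors and transcription factors was called. Ern1 had 15.3, 20.5 and 25.4 CPM in EV control 1 to 3, against 18.4, 27.1 and 25.3 CPM in p27 OE 1 to 3, and Atf6 had 57.0, 111 and 112 against 62.8, 129 and 126 CPM in the same order. Both sets of values overlapped between the groups, and the log2 fold changes were 0.22 ± 0.09 and 0.18 ± 0.05 (edgeR adjusted p 0.148 and 0.0615). Xbp1 had 139, 105 and 108 CPM in EV control 1 to 3, against 127, 110 and 125 CPM in p27 OE 1 to 3, higher in p27 OE at numbers 2 and 3 and lower at number 1 (0.05 ± 0.07). Atf4 was at 351, 438 and 439 against 336, 442 and 494 CPM, also with opposite signs between the numbers (0.04 ± 0.06).

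Ddit3 had 67.9, 113 and 120 CPM in EV control 1 to 3, against 66.7, 140 and 140 CPM in p27 OE 1 to 3. The values were close between the libraries numbered 1 and higher in p27 OE for the other numbers, with a log2 fold change of 0.17 ± 0.07 (edgeR adjusted p 0.131). Atf5, a relative of Atf4, had 253, 283 and 274 CPM in EV control 1 to 3, against 249, 230.0 and 239 CPM in p27 OE 1 to 3. The groups did not overlap, and the log2 fold change was -0.17 ± 0.06 (edgeR adjusted p 0.0994, and 0.685 without the block). Without the libraries numbered 1, which leaves 2 pairs, Ddit3 had 0.27 (edgeR adjusted p 0.00321), Atf6 0.19 (0.0247) and Atf5 -0.25 (0.00517). Pdia3, Hsp90b1 and Chac1 were also called higher in that fit.

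Of the 3 feedback genes and effectors, Ppp1r15a rose. It had 54.8, 98.8 and 95.1 CPM in EV control 1 to 3, against 58.7, 122 and 125 CPM in p27 OE 1 to 3. The groups overlapped because both libraries numbered 1 were low, while p27 OE was higher within each number. The log2 fold change was 0.27 ± 0.06 (edgeR adjusted p 0.0223, 0.913 without the block and 0.275 without the libraries numbered 3).

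Chac1, a glutathione-degrading enzyme induced by Atf4, had 46.9, 40.4 and 44.9 CPM in EV control 1 to 3, against 33.9, 49.6 and 58.2 CPM in p27 OE 1 to 3. It was lower in p27 OE at number 1 and higher at 2 and 3, with log2 ratios of -0.47, 0.29 and 0.38. The fitted change of 0.07 ± 0.22 has an interval from -0.62 to 0.76, the widest among the members. Trib3, a pseudokinase that restrains Atf4 and Ddit3, had 104, 172 and 164 CPM in EV control 1 to 3, against 96.4, 151 and 168 CPM in p27 OE 1 to 3. It was lower at numbers 1 and 2 and higher at 3 (-0.08 ± 0.06, not called).

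**Figure D2:**
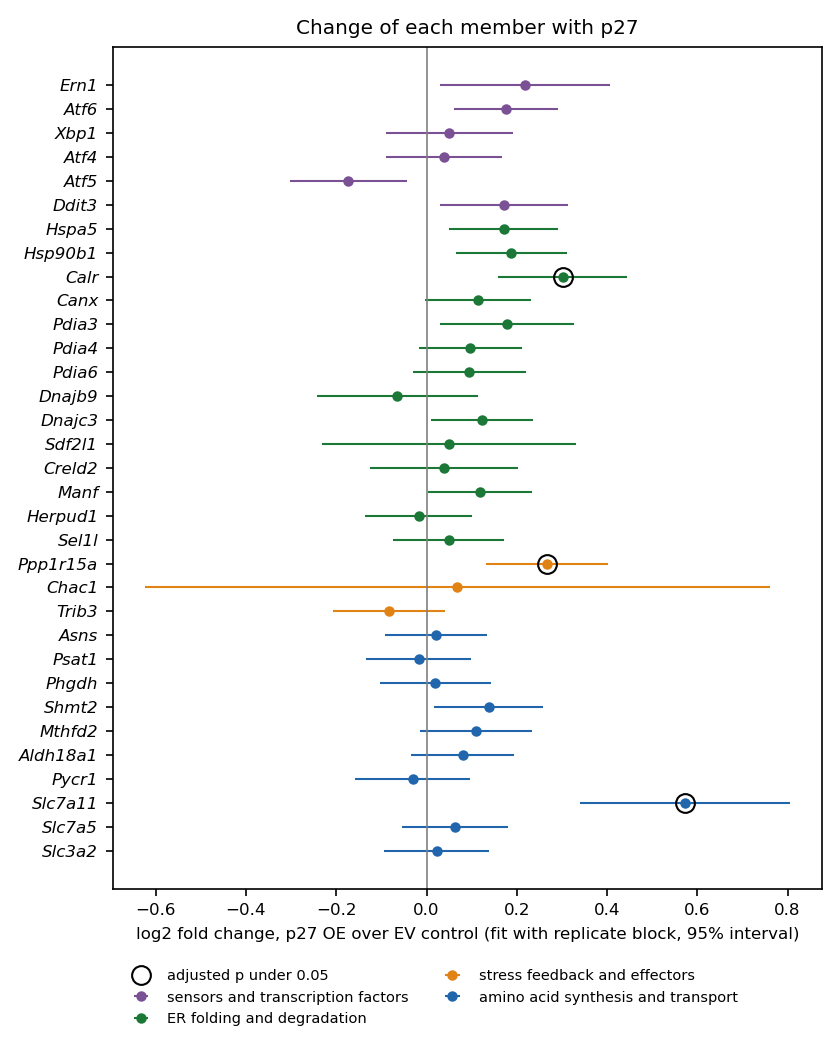
Log2 fold change of each of the 33 members, p27 OE over EV control, from the edgeR fit with the replicate number as a block; points are estimates, bars 95% intervals, colours roles and open circles an adjusted p under 0.05. Slc7a11 (0.57), Calr (0.30) and Ppp1r15a (0.27) are circled, 27 of 33 points lie above 0, against 49.6% of all tested genes, and the bar of Chac1 is the widest.

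Of the 30 members that were not called with the block, 29 had a 95% interval within 0.5 of 0 on the log2 scale in that fit, and Chac1 did not. The share of all tested genes within this bound was not taken, so the count does not set the members apart. Without the block the intervals were wider, and 12 of all 33 members had one within 0.5 of 0. Atf6 then had -0.66 to 1.03 and Asns -0.77 to 0.83. Across all 33, 14 were higher in p27 OE within each of the 3 numbers, 42.4% against 21.8% of all tested genes, and 1, Atf5, was lower within each, 3.03% against 23.7%.

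Other genes of these pathways were read from a pair of lists, also chosen with earlier results of these data known. Of 58 further ER folding, translocation and degradation genes, all tested, 3 rose and 0 fell with the block. They were Fkbp14, a prolyl isomerase of the ER (0.24), Uggt1, the glucosyltransferase that marks unfolded glycoproteins for another round of folding (0.23), and Dnajb11, a cochaperone of BiP (0.20), with edgeR adjusted p of 0.0345, 0.0430 and 0.0419. That is 5.17% against 3.80% of all genes. Of 47 further genes of the integrated stress response and of amino acid supply, all tested, 5 rose and 0 fell, 10.6%. The stress-induced chromatin protein gene Nupr1 had 79.4, 172 and 166 CPM in EV control 1 to 3, against 95.4, 248 and 215 CPM in p27 OE 1 to 3, higher within each number (0.39 ± 0.06, adjusted p 0.00254). The others were Slc7a1, a transporter of cationic amino acids (0.31), and the tRNA synthetase genes Tars (0.31), Eprs (0.23) and Nars (0.22). Without the block 0 genes of either list were called.

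Most members differed more between the replicate numbers than between the groups. An edgeR F test of the number, in the fit that also holds the group, called 26 of 33 members (78.8%) at an adjusted p under 0.05, against 31.2% of all tested genes. Without the libraries numbered 1, the comparison of number 2 with number 3 called 0 members and 15 genes in all, while 27 and 26 members were called without numbers 2 or 3. The calls thus rested on the libraries numbered 1, a split read from the data after the values were seen. In 30 of 33 members the difference of number 1 from the mean of the others was larger than the change with p27, as in 67.9% of all tested genes.

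Number 1 went in opposite directions for the chaperones and the amino acid genes. All 12 chaperones and folding factors had higher mean log2 CPM in the libraries numbered 1 than in the others, and all 10 amino acid members had lower. The ER degradation members Herpud1 (-0.06) and Sel1l (-0.25) were lower as well. Among all 14090 tested genes 7152 were higher. Of the 14 ER folding and degradation members, 10 were called by the F test with number 1 higher and 1, Sel1l, with number 1 lower. Of the 10 amino acid members, 8 were called, all with number 1 lower. Among all tested genes 15.3% were called with number 1 higher and 16.0% with it lower. In 12 members both libraries numbered 1 lay above the other 4, and in 16 both lay below, against 24.5% and 24.5% of all tested genes.

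Calr had the largest excess, 0.81 on the log2 scale (1.76-fold, adjusted p 3.49e-06). Sdf2l1, a subunit of BiP complexes, was at 11.3 and 15.03 CPM in EV control 1 and p27 OE 1 and at 7.502 to 8.81 CPM in the other 4 libraries (0.69). Creld2, a secreted ER stress protein, had 0.55, Pdia3 0.50, and Pdia6 and Hspa5 0.49 and 0.48. Dnajb9 and Dnajc3 had 0.18 and 0.12 and were not called. Summed over the 12 chaperones and folding factors, levels were 6456 and 6858 CPM in the libraries numbered 1 and 4413 to 5197 CPM in the other 4. The 7 members with an ER stress element had both libraries numbered 1 above the other 4, with the exception of Dnajc3. So did the 4 chaperones and folding factors whose window lacks the element, Pdia3, Pdia4, Dnajb9 and Sdf2l1, and Manf. Of the 11 other tested genes whose window holds that element, 4 had both above and 0 had both below, against 24.5% and 24.5% of all tested genes. For TGACGTGG the counts above and below were 41 and 25 of 118 tested genes outside the members. For TGATGNAA they were 53 and 97 of 281. Only exact matches within the windows were counted, and the part of these motifs in the difference by number was not tested.

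The lowest amino acid member in the libraries numbered 1 was Slc7a5, at 225 and 226 CPM against 432 to 474 CPM in the other 4 (-0.99, adjusted p 1.56e-07). Asns, with the values above, had -0.94 (adjusted p 1.87e-07). Mthfd2 had -0.87, Slc3a2 -0.83, Psat1 -0.68, Phgdh -0.50, Shmt2 -0.48 and Aldh18a1 -0.29. Pycr1 (-0.14) and Slc7a11 (-0.22) were not called. The sum of the 10 was 1546 and 1603 CPM in the libraries numbered 1 and 2466 to 2613 CPM in the other 4, a gap without overlap.

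The regulators and effectors went mostly with the amino acid genes. Atf6 had -0.995 (adjusted p 1.23e-07), Ppp1r15a -0.95, Ddit3 -0.92, Trib3 -0.71, Ern1 -0.54 and Atf4 -0.40, each called. Xbp1 went the other way with the chaperones (0.25, adjusted p 0.0223), and Atf5 (-0.03) and Chac1 (-0.26) were not called. The Atf6 messenger was lower in the libraries in which the chaperone messengers were higher. Counts do not show cleavage of Atf6, and a link between these levels was not tested.

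**Figure D3:**
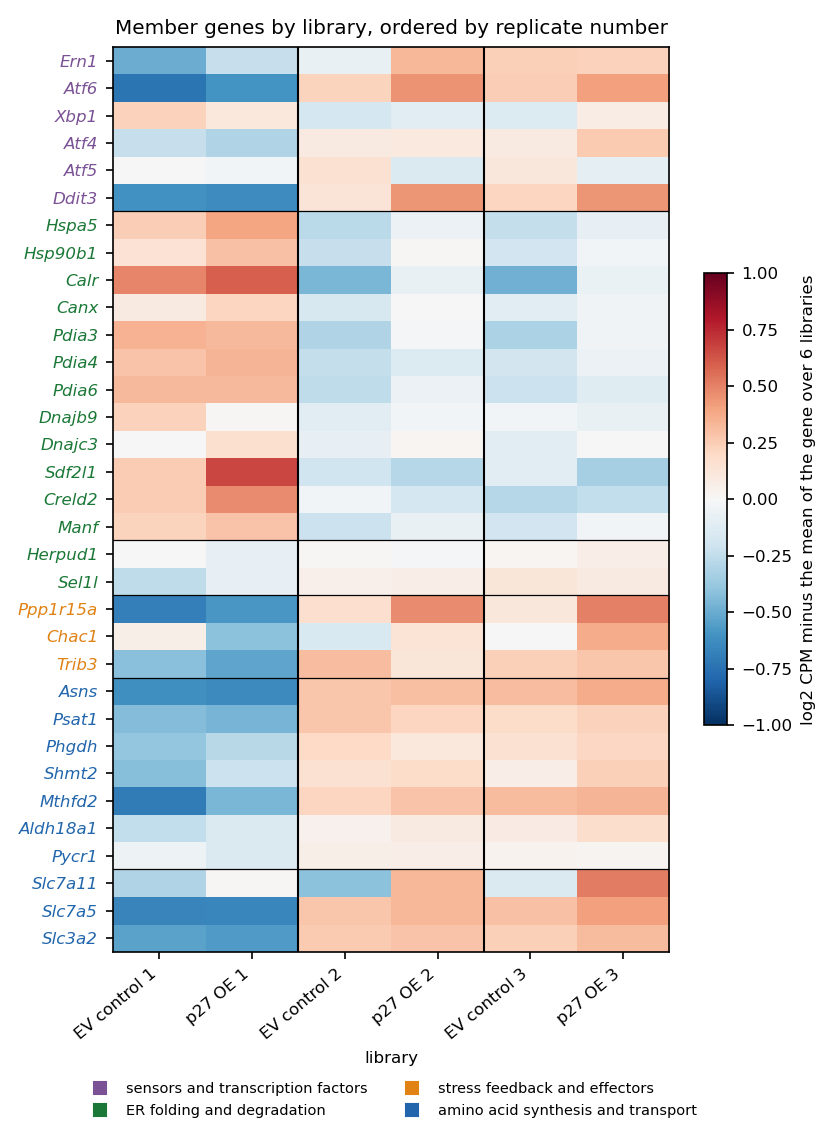
Heat map of the 33 members (rows, by role) in the 6 libraries (columns, by replicate number); colour is log2 CPM minus the mean of the gene over the 6 libraries. In both libraries numbered 1 most chaperone rows are red and most amino acid, Ddit3, Atf6, Ppp1r15a and Trib3 rows are blue.

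The further lists, chosen as said above with earlier results known, were read by the same test. Of the 47 further stress response and amino acid genes, 34 were called by the F test (72.3%, against 31.2% of all tested genes), all with number 1 lower (16.0% of all tested genes). They include, chosen after their values were seen, the secreted stress hormone genes Fgf21 (-2.29) and Gdf15 (-1.86) and the cysteine synthesis gene Cth (-1.90). Fgf21 was at 4.83 and 3.25 CPM in EV control 1 and p27 OE 1 and at 18.1 to 23.2 CPM in the other 4 libraries. Of the 58 further ER genes, 20 were called, 11 with number 1 higher and 9 lower, and this share of 34.5% is near that of all tested genes.

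Marker genes moved with the number as well. Of 10 fibroblast markers 5 were called, against 31.2% of all tested genes. The 4 with number 1 higher were Lum (1.74 on the log2 scale), Pdgfra (1.22), Dcn (1.06) and Col3a1 (0.38), and Thy1 (-0.61) was lower. The summed level of the 10, mostly that of the collagen genes, was 57731 and 60111 CPM in the libraries numbered 1. It was 54152 to 60079 CPM in the others, which overlaps. Macrophage markers summed to 43.7 and 46.3 CPM against 55.2 to 75.8 CPM, with 1 of 8 called (Lyz2, number 1 lower). Of 6 neural markers 3 were called, Sox2 (1.70 on the log2 scale) and Tubb3 (0.54) with number 1 higher and Nes (-0.71) lower. The endothelial marker Tek (2.03) was also called higher and the plasma cell marker Prdm1 (-2.13) lower. Xist and Ddx3y separated the same libraries, as given above. The replicate number, Xist and Ddx3y and any step shared by the libraries numbered 1 cannot be told apart in this design, and their part in the result was not tested.

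**Figure D4:**
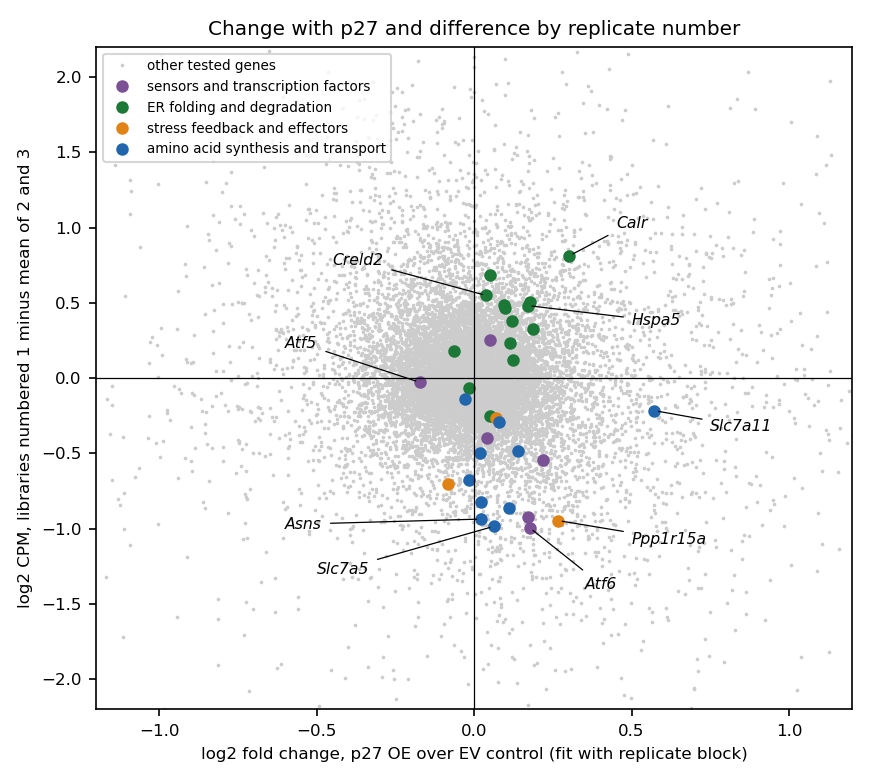
Each point is a tested gene; the horizontal axis is its log2 fold change of p27 OE over EV control in the fit with the block, the vertical axis its log2 CPM in the libraries numbered 1 minus the mean of those numbered 2 and 3. Genes beyond the axes are not drawn; all members lie inside, with ER folding genes mostly above 0 and amino acid genes below 0 on the vertical axis and 30 of 33 members farther from 0 on it than on the horizontal axis, against 67.9% of all tested genes.

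Levels were compared between genes as CPM per kilobase of exon, with exons merged over all transcripts of a gene in the GENCODE annotation of GRCm38. The members with the 4 highest means were chaperones. Calr stood at 280.2 ± 116 in EV control and 336 ± 95.4 in p27 OE (SD, n = 3), Pdia3 at 281 ± 79.0 and 313 ± 45.1, and Hsp90b1 at 254 ± 37.4 and 289 ± 35.7. Hspa5 followed with 203 ± 42.7 and 227 ± 44.0. For neighbours in this order, the ranges of mean ± SD overlapped in both groups, as did those of Hspa5 and Atf4, which came next. Compared within libraries, Hsp90b1 was above Hspa5 in each of the 6. The other neighbours, and Hspa5 and Atf4, changed places between libraries, so the rest of the order and the set of 4 are not resolved. The means of these 4 chaperones over the 6 libraries were above those of at least 98.7% of 13455 tested genes with a length.

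Atf4 had the highest mean of the transcription factors, at 174 ± 21.4 and 179.7 ± 34.2 CPM per kilobase, followed by Atf5 at 135 ± 7.78 and 120.0 ± 4.65. Ern1 was the lowest of the regulators, at 2.50 ± 0.62 and 2.89 ± 0.56. Slc7a11, the member with the largest change, was the least abundant of all, at 0.67 ± 0.06 in EV control and 1.01 ± 0.17 in p27 OE, while its partner Slc3a2 was at 89.6 ± 25.3 and 91.6 ± 28.1. Slc7a11 has long annotated exons, 13922 bases in all, which lowers its value per kilobase. Exons of other genes overlap those of 10 members, most of all Hsp90b1, with 10.3% of its exon bases shared with 1810014B01Rik. Reads there cannot be assigned by strand with this kit.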

How the data were processed

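RNA from 6 libraries of mouse embryonic fibroblasts was sequenced with a kit that does not keep strand, per the labels' protocols. The authors deposited raw read counts per gene symbol in 1 table. Per the submitters' processing notes, TopHat2 2.0.14, Bowtie2 2.2.6 and featureCounts 1.4.6 of Subread were used with the mouse build mm10. Each of the 6 count columns matched the label of 1 library.

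Low genes were removed by filterByExpr with the group given (count 10, total 15). The rest were scaled by TMM and tested with edgeR 4.0.16 in R 4.3.3 (quasi-likelihood F test, robust, two-sided, Benjamini-Hochberg adjustment over all 14090 genes, threshold 0.05). SEs come from the F statistic and 95% intervals from the t distribution of the fit. The planned main fit had the group only, and a further planned fit had the replicate number as a block. The numbers were checked for pairing by correlating deviations from the group means (log2 CPM, prior count 2). Same-numbered libraries correlated at 0.77, 0.42 and 0.54, but EV control 2 with p27 OE 3 at 0.39 and EV control 3 with p27 OE 2 at 0.41. The pairing comes from the titles together with this check, which for numbers 2 and 3 hardly sets it apart from the crossed one. Xist, read apart from this check, was at 5.93 and 9.57 CPM in EV control 2 and p27 OE 2. It was at 0.601 and 0.504 CPM in EV control 3 and p27 OE 3, so in this gene same-numbered libraries were alike. No pair of libraries agreed within sampling noise. The fits were tested on simulated data.

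The members and lists were chosen with earlier results of these data known. Members called in either fit, members whose groups do not overlap and 10 regulators and anchor genes get values by library. From the further lists, at most the 6 genes of smallest p per direction that were called with the block are named. The comparison of number 1 with the others, and the other settings for the test of the number, were chosen after seeing the data. Alternatives were DESeq2 1.42.0, limma-voom (limma 3.58.1), RLE or upper-quartile scaling, leaving out libraries, and either no filter or one that asked for 1 CPM or more in 3 libraries. Protein sequences were not used here.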

Additional observations from a re-analysis of the deposited data

How the results depend on the processing

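Without the block, edgeR called 0 members in either direction under each scaling and filter and without each single library, as did DESeq2 and limma-voom. Over all genes, 0 were called higher except 1 with no filter, 53 with DESeq2 and 0 to 1 when a library was left out (1 without p27 OE 2), and 0 were called lower except 36 with DESeq2. With the replicate block, 3 members were called higher, and likewise with RLE scaling, upper-quartile scaling, the filter of 1 CPM and limma-voom. The block gave 4 with no filter and 5 with DESeq2. The genes called higher numbered 535 with the block, 567 with RLE scaling, 483 with upper-quartile scaling, 689 with no filter, 543 with the 1 CPM filter, 479 with DESeq2 and 457 with limma-voom. Those called lower numbered 512, 475, 736, 727, 475, 351 and 372 in the same order. Leaving out the libraries numbered 1, 2 or 3 of both groups gave 8, 3 and 0 members higher and 1, 0 and 0 lower, with 893, 503 and 224 genes higher and 848, 425 and 106 lower. Slc7a11, Calr and Ppp1r15a were each called in 9 of 10 fits with the block, all but the one without the libraries numbered 3. The ER folding median log2 fold change of 0.11 was 0.0866 with upper-quartile scaling and 0.0852 with the block and that scaling. It ranged from -1.32e-05 to 0.26 when single libraries were left out, and was 0.11 to 0.12 when both libraries of a number were left out with the block. The amino acid median of 0.05 was 0.0313 with upper-quartile scaling and 0.0218 with the block and that scaling. It ranged from -0.16 to 0.26 without single libraries and from 0.0175 to 0.0753 without both of a number. The test of the replicate number called 26 members under each scaling and filter and 27, 26 and 0 without the libraries numbered 2, 3 and 1. The cause of these differences was not tested. With 3 libraries a group, no exact permutation test of a single value was used.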
